A study of Homo sapiens with 4 samples.

Results

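MCF10A cells stably transfected with Her2 and PIK3CA-H1047R together were compared with MCF10A cells stably transfected with LacZ, a bacterial enzyme gene used as the control. MCF10A is a non-tumorigenic human mammary epithelial cell line. Both samples were identified by their labels and are 2 of the 4 samples of the series. The other two samples carried Her2 or PIK3CA-H1047R singly, and all lines were kept untreated in the same medium. H1047R is a change in the kinase domain of PIK3CA that is common in breast tumours. The sources used here do not give the promoters that drive the transfected genes or whether each line was 1 clone or a pool. Each group was measured on 1 array, so every difference below is a value of 1 array against 1 array, with no replicate spread, SD or test, and the number of arrays limits the precision.

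Her2 (ERBB2) is a receptor tyrosine kinase that has no known ligand of its own and signals in dimers with its family members, mainly through the MAPK cascade and phosphoinositide 3-kinase. PIK3CA encodes the catalytic subunit of that kinase, whose lipid product recruits AKT, which restrains FOXO transcription factors and favours growth through mTORC1. Mammary epithelial cells of this kind are held together by E-cadherin junctions and desmosomes. Their loss, with a gain of N-cadherin, fibronectin and related genes, is the textbook pattern of epithelial to mesenchymal transition.

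The deposited values are on a log2 scale, where 1 unit is 2-fold. All differences are the array labelled with both genes, called the double array here, minus the LacZ array. A gene was taken as at background under log2 3 and as expressed at log2 5 or more. Of 20460 genes with a probe set of their own, 4072 were expressed on at least 1 of both arrays and were counted. The medians of the 4 arrays over all 53617 probe sets lay between 1.13 and 1.17. The probe set for ERBB2, which also carries the name of the microRNA gene MIR4728, read 5.96 on the LacZ array and 7.39 on the double array, a difference of 1.43. The array labelled Her2 read 4.29 and the array labelled mutant PIK3CA 8.48, which goes against these labels. Groups are therefore named by their labels, as the Her2-labelled and the PIK3CA-labelled array. No probe set was named for PIK3CA, so that gene was not analysed here. GRB7, an adaptor protein gene beside ERBB2, went the other way, from 5.28 on the LacZ array to 1.84 on the double array.

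Most genes expressed on both arrays lay close together, and a small set was expressed on 1 array and at background on the other. Of the 4072 counted genes, 2811 were expressed on both arrays. Among these, 187 passed 2-fold upward on the double array (6.65%) and 176 passed it downward (6.26%). Only 17 in each direction passed 4-fold. The median difference of these 2811 genes was 0.01 and Pearson's r across them was 0.796, as a description of the pair of arrays. A further 103 genes (2.53% of those counted) were at background on LacZ and expressed on the double array, and 12 (0.295%) were expressed on LacZ and at background on the double array. The remaining counted genes were low, between 3 and 5, on 1 array: 605 on LacZ, of which 294 were at least 2-fold higher with both genes, and 541 on the double array, of which 264 were at least 2-fold lower. Over all counted genes, 584 passed 2-fold upward (14.3%) and 452 downward (11.1%). These shares are the background for the lists below, whose counts and medians cover counted genes and are descriptions: a gene low on 1 array was counted through the other.

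**Figure D1:**
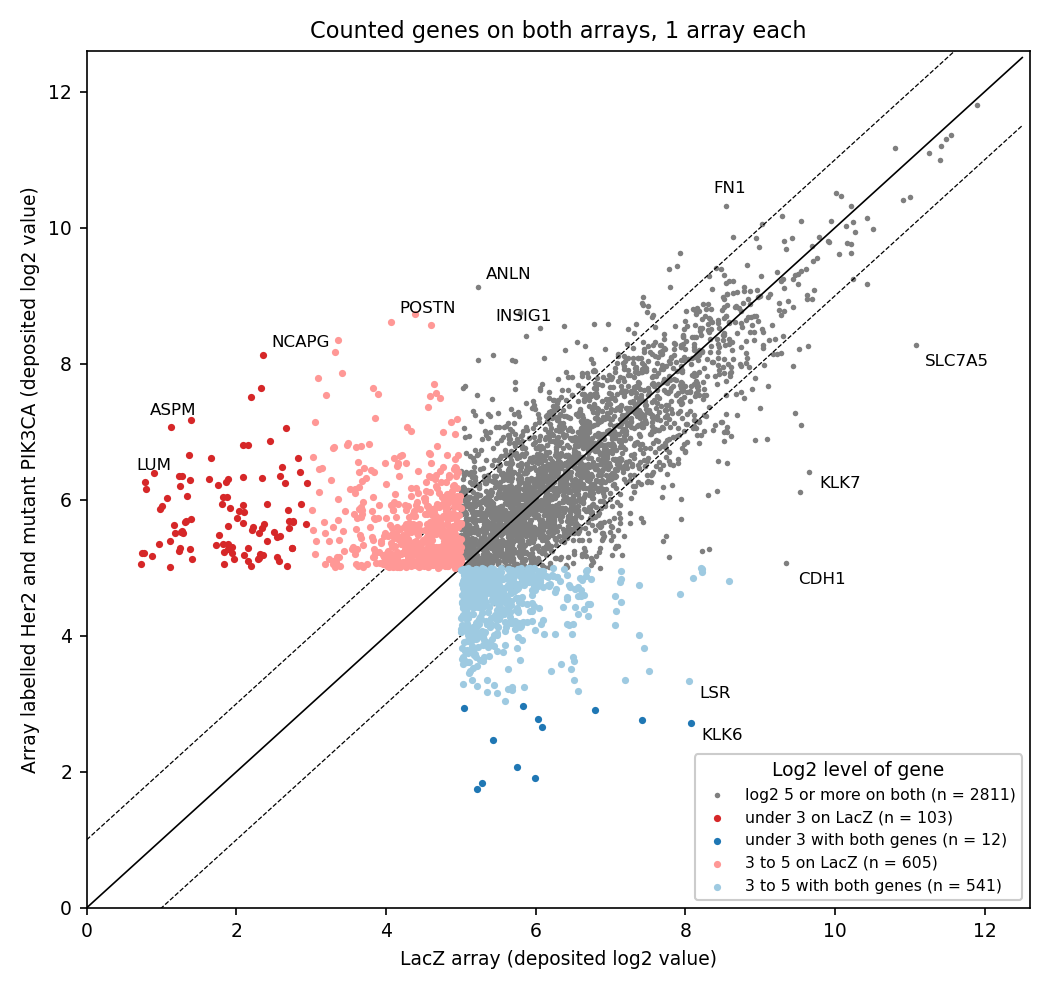
Deposited log2 value of each of the 4072 counted genes on the LacZ array (x axis) and on the array labelled with both genes (y axis), 1 array each. The solid line marks equal values and the dashed lines 2-fold. The 103 genes under 3 on LacZ form a cloud at the upper left, 12 genes lie under 3 on the double array, and CDH1, KLK6 and LSR lie far below the diagonal.

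A pair of measures shows the error within these arrays. For 23 genes with more than 1 probe set expressed on both arrays, the probe sets of a gene differed in their log2 difference by a median of 0.12 and at most by 0.53. These gaps hold probe error and transcript differences but no error of culture or array. Among 40637 probe sets at background on both arrays the SD of the difference was 0.42, and 3.44% of them passed 2-fold. Values at background therefore have no order, and a gene at background on 1 array is given as a lower bound, computed against log2 3. Of the genes expressed on the double array, 7 lay within 0.25 below that limit on LacZ and 16 within 0.25 above it. Of those expressed on LacZ, 5 lay within 0.25 below it on the double array, among the 12 genes of that class, and 7 within 0.25 above it. A list median uses measured differences, and where genes at background move it, the median with these genes at their bound follows.

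Genes of the cell division cycle made up most of the genes expressed on the double array and at background on LacZ. Lists of mitosis, DNA replication, repair, chromatin and G1 control genes held 166 of the 4072 counted genes. Of these 122 were at least 2-fold higher on the double array and 0 were lower, with a median difference of 2.55 (2.17 with bounds) against 0.05 for all counted genes. They supplied 60 of the 103 genes that were at background on LacZ (58.3%), against 16 of the 187 higher genes that were expressed on both arrays (8.56%). Members low or at background on LacZ were counted only through the double array, so their direction follows from the filter. Of the 51 members expressed on both arrays, 16 were at least 2-fold higher and 0 lower. Another 115 measured members stayed under log2 5 on both arrays. In bulk RNA, more dividing cells and more RNA of these genes per cell cannot be told apart.

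The mitosis lists had a median of 3.64 over 80 counted genes, and 2.79 with bounds. Of these 80, 14 were expressed on both arrays, and the others were counted only through the double array. Of 25 counted genes of mitotic entry and the spindle checkpoint, 23 were higher by 2-fold or more and 0 lower, and the median was 3.15 (2.61 with bounds). CDK1, the kinase that drives entry into mitosis, read 1.66 on LacZ and 6.62 on the double array, at least 12.3-fold higher. BUB1, a kinase of the spindle checkpoint, read 1.39 and 6.29. CCNA2, the cyclin A2 gene, was low on LacZ at 3.09 and read 7.79 on the double array. MKI67, the gene of the proliferation antigen Ki-67, was already near the expression threshold at 4.60 and read 8.56. Both remaining genes of the list were within 2-fold. WEE1, which holds CDK1 back, differed by 0.54 and CDC25B, a phosphatase that activates CDK1, by -0.08.

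All 9 counted mitotic kinesins, the motor proteins of the spindle, were higher by 2-fold or more, with a median of 4.34 (3.34 with bounds). None of the 9 was expressed on LacZ, so their direction follows from the filter. Over the 13 measured kinesins the median was 4.04. KIF20A read 1.40 and 7.18, at least 18.1-fold higher, and KIF20B read 2.45 and 6.87, at least 14.6-fold. Of 18 counted centromere and kinetochore genes 17 were higher by 2-fold or more, and the median was 3.83 (2.67 with bounds). These 17 were low or at background on LacZ and were counted only through the double array. Over the 31 measured genes of that list the median was 2.76. CENPF, a large protein of the outer kinetochore, read 2.19 and 7.51, at least 22.8-fold higher. SKA3, which helps couple kinetochores to microtubules, read 2.60 and 6.48. The exception, MIS12, was expressed on both arrays and differed by 0.28.

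Of 12 counted cytokinesis genes 11 were higher by 2-fold or more, and the median was 4.42 (3.35 with bounds, since 7 were at background on LacZ). ASPM, a spindle pole protein, read 1.13 on LacZ and 7.06 on the double array, at least 16.7-fold higher. ANLN, the contractile ring protein anillin, was expressed on both arrays and had the largest difference of all such genes, from 5.23 to 9.13, a difference of 3.90. TPX2, a spindle assembly factor, came next at 2.96, from 5.79 to 8.75. HMMR and CEP55, genes of the spindle and the midbody, were at background on LacZ and read 6.81 and 6.66 on the double array. CKAP5, a microtubule polymerase used outside mitosis too, stayed within 2-fold at 0.59.

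Genes of chromosome structure ranged widely. Of 16 counted, 12 were higher by 2-fold or more, and their median was 1.67. NCAPG, a subunit of condensin, read 2.36 and 8.13, at least 35.0-fold higher, the largest bound among the 103 genes. Its partners SMC2 and NCAPD2 differed by 3.47 and 1.46, and NCAPH, at background on LacZ, was at least 4.56-fold higher. TOP2A, the topoisomerase that untangles sister chromatids, read 4.39 and 8.73. Genes of cohesin, which is loaded outside mitosis as well, gave 1.47 for SMC3, 1.39 for SMC1A and 0.74 for STAG2. WAPL and PDS5A, which help release or regulate cohesin, differed by 0.15 and 0.14.

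Replication genes were higher too, by smaller amounts. Of 16 counted licensing and firing genes 11 were at least 2-fold higher and 0 lower (median 1.66), and of 13 fork and polymerase genes 10 were (median 1.81). Of the 5 and 3 expressed on both arrays, 2 and 1 were at least 2-fold higher, with medians of 0.86 and 0.48. The other higher genes were counted only through the double array, so their direction follows from the filter. Over the 27 and 32 measured members the medians were 1.84 and 1.43. CLSPN, the gene of the checkpoint adaptor claspin, read 1.32 and 5.69. PCNA, the sliding clamp of the polymerases, was well expressed on both arrays, at 6.78 and 8.58. The helicase subunits MCM6, MCM4, MCM3 and MCM7 differed by 2.65, 1.84, 1.49 and 1.42. Of the origin recognition complex, which marks origins for licensing, the 4 counted subunits were within 2-fold, with 0.86 for ORC3, 0.21 for ORC2 and 0.19 for ORC4. ORC1 and ORC6 stayed under the expression threshold on both arrays and were not counted, but were at background on LacZ and read 4.39 and 4.98 on the double array. DTL, which targets replication factors for destruction in S phase, read 2.66 and 7.05, at least 16.6-fold higher.

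Nucleotide synthesis genes were higher in part. Of 16 counted genes 4 were at least 2-fold higher, and these serve the supply of deoxynucleotides: TYMS (thymidylate synthase), RRM1 and RRM2 (ribonucleotide reductase) and TK1 (thymidine kinase). All 4 were low or at background on LacZ and counted only through the double array, so their direction follows from the filter. Of the 11 genes expressed on both arrays 0 were at least 2-fold higher (median 0.16). TYMS read 2.33 on LacZ and 7.64 on the double array, at least 24.9-fold higher. RRM2 read 2.37 and 5.64. Other genes of deoxynucleotide metabolism stayed within 2-fold, the reductase subunit RRM2B at 0.97 and the pyrophosphatase DCTPP1 at -0.40. The purine synthesis genes PAICS, GMPS, PPAT, ATIC and GART, which also serve RNA synthesis, were expressed on both arrays and differed by 0.07 to 0.47. This grouping within the list was made after its values were seen.

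Repair, chromatin and G1 genes followed with fewer members. Of 8 counted homologous recombination and Fanconi genes 6 were at least 2-fold higher, among them EXO1 (1.86 and 6.27), a DNA exonuclease, and FANCI (2.65 and 6.25). Of 14 chromatin assembly genes 12 were, with a median of 1.89 (1.85 with bounds). Of the 2 repair and 5 chromatin genes expressed on both arrays, 1 and 3 were at least 2-fold higher (medians 0.95 and 1.39). The other higher genes of these lists were counted only through the double array, so their direction follows from the filter. EZH2, the methyltransferase of Polycomb complex PRC2, read 4.18 and 6.36 and DNMT1, the maintenance DNA methyltransferase, 5.18 and 6.56. In G1, CCNE2, a cyclin that starts S phase, read 0.88 and 5.17. The upstream G1 genes did not share this size of difference: CCND1, the cyclin D1 gene, differed by -0.25, CDK4 by -0.06 and CDKN1A, the inhibitor p21, by -0.47. Of 15 counted p53 targets 1 was at least 2-fold higher (GADD45A, 1.12) and 2 lower (BAX, at -1.39, and SESN2, at the 2-fold limit).

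Promoters of division genes are known to carry short elements bound by shared factors: CCAAT boxes (NF-Y), the cell cycle homology region or CHR (MuvB complexes) and E2F sites. The RefSeq promoters (GRCh38.p14, 250 bases before to 50 after the gene start) of the mitotic genes CDK1 and BUB1 and of the replication gene CLSPN are shown because these had the largest measured differences of their lists among genes with an entry, with LacZ values at background. Capitals mark matches to any of 3 motifs on either strand. The CCAAT box was searched as CCAAT. The CHR was searched as TTTGAA. For E2F the letters were TTTCGCGC or TTTGGCGC. CDK1 lies at chr10:60778081-60778380, plus strand, BUB1 at chr2:110678014-110678313, minus strand, and CLSPN at chr1:35769929-35770228, minus strand, each printed on the strand of its gene.
CDK1: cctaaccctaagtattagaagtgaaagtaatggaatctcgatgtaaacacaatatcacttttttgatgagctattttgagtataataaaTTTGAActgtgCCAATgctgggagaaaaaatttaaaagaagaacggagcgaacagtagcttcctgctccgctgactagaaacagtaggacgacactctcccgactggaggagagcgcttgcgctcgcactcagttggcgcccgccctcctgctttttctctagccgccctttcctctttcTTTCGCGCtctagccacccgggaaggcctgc
BUB1: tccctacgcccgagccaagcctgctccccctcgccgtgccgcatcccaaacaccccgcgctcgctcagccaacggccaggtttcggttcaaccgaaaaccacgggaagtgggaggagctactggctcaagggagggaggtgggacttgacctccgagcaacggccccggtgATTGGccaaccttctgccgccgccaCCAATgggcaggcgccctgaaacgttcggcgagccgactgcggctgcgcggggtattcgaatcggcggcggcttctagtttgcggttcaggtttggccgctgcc
CLSPN: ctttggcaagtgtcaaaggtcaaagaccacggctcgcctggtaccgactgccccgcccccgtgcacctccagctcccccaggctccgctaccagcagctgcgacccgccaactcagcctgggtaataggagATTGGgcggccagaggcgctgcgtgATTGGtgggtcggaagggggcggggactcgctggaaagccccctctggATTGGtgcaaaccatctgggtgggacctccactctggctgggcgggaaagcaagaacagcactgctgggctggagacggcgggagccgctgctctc
CDK1 held a match to each of the 3 motifs, the CHR at -161 to -156, the CCAAT box at -150 to -146 and the E2F site at 20 to 27 from the gene start. BUB1 held 2 CCAAT boxes and CLSPN 3, and no matches overlapped.

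The share of promoters with each motif was counted in the mitosis and the replication lists. Of 68 counted mitosis genes with a promoter in the table, 61.8% held TTTGAA, against 15.4% of all 27305 promoters and 10.7% of the 3410 counted genes with an entry. Of 28 replication genes, 3.57% held it. The E2F letters were found in 28.6% of the replication genes and 2.94% of the mitosis genes, against 1.18% of all promoters and 2.64% of counted genes, so the share in mitosis genes was near that background. CCAAT boxes were found in 69.1% and 60.7%, against 35.7% of all promoters and 37.5% of counted genes. These are counts of letters in a window and show neither binding nor its absence.

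Genes of the epithelial state were mostly lower on the double array. Lists of junction, polarity, apical, keratin, kallikrein, cornified envelope, serpin, S100, antimicrobial and epithelial factor genes held 74 of the 4072 counted genes. Of these 51 were at least 2-fold lower and 4 higher, with a median difference of -1.56. The higher genes were CDH2, SERPINB7, S100A3 and SAA1. The lists supplied 5 of the 12 genes at background on the double array (41.7%): KLK6, AP1M2, HSD11B2, HOXB9 and CDH11. CDH2 and CDH11 stood in the list of mesenchymal markers as well, and HOXB9 in that of HOX genes, so these are not markers of the epithelial state alone. They also supplied 20 of the 176 lower genes expressed on both arrays (11.4%). Of the 39 members expressed on both arrays, 20 were at least 2-fold lower and 1 higher, while members low on the double array were counted only through LacZ.

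CDH1, the gene of E-cadherin, read 9.34 on LacZ, 8.94 on the Her2-labelled array, 9.13 on the PIK3CA-labelled array and 5.07 on the double array. The difference of -4.27 (19.3-fold) was the lowest of all genes expressed on both arrays, and only the double array was low. CDH3, the P-cadherin gene, read 8.22 and 4.98, and CDH11, another classical cadherin, 5.43 and 2.46. CDH2, the N-cadherin gene, was at background on the other three arrays, from 0.97 to 1.67, and read 5.34 on the double array. The catenin genes CTNNB1 and CTNNA1, whose products link cadherins to actin, were within 2-fold at 0.47 and -0.44. EPCAM, an epithelial adhesion molecule, differed by -2.22.

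Tight junction and desmosome genes were lower as well. Of 6 counted members of the tight junction list 5 were at least 2-fold lower (median -2.91), and of 8 desmosome genes 4 were (median -0.93). All 5 of the tight junction list were low on the double array and counted through LacZ, and over the 15 measured members the median was -0.64. LSR, the lipolysis-stimulated receptor of tricellular contacts, read 8.05 and 3.33, and CLDN7, a claudin, 8.11 and 4.85. JUP, the gene of plakoglobin, stood in the tight junction list although plakoglobin belongs to desmosomes and adherens junctions, and read 8.23 and 4.93. TJP1, the scaffold ZO-1, was within 2-fold at -0.24. In the desmosome list DSG3, DSC2, DSP and PKP2 differed by -1.94, -1.60, -1.29 and -1.03, while DSG2 and DSC3 stayed within 2-fold at -0.40 and -0.35. All 8 desmosome genes were still expressed on the double array.

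Polarity and apical genes were mostly low or at background on the double array. Of 9 counted polarity and sorting genes 7 were at least 2-fold lower, and of 11 apical transporters, channels and membrane proteases 10 were (median -2.48). Of the 3 polarity genes expressed on both arrays 1 was at least 2-fold lower, and of the 4 such apical genes 3 were. The others were counted only through LacZ, so their direction follows from the filter. Over the 23 and 22 measured members the medians were -0.88 and -1.30. AP1M2, the adaptor subunit of basolateral sorting, read 6.79 and 2.90, at least 13.8-fold lower. HSD11B2, which inactivates cortisol, read 5.99 and 1.91, at least 7.96-fold lower. SCNN1B and SCNN1G, subunits of the epithelial sodium channel, differed by -3.78 and -3.32, and PRSS8, the membrane protease prostasin that activates this channel, by -4.03. The protease ST14 and its inhibitors SPINT1 and SPINT2 differed by -2.41, -3.63 and -2.29. The polarity genes PARD3 and PRKCI did not share this and differed by 0.26 and 0.23.

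All 4 counted kallikreins, secreted serine proteases, of 9 measured were lower by 2-fold or more. KLK6 read 8.07 on LacZ, 5.25 on the Her2-labelled array, 3.70 on the PIK3CA-labelled array and 2.71 on the double array, at least 33.6-fold lower, the largest bound in that direction. KLK5 and KLK7 were expressed on both arrays and differed by -3.41 and -3.25, and KLK10 by -2.64. These 4 genes are neighbours on chromosome 19 and formed part of a run of 8 adjacent counted genes that were all at least 2-fold lower, with AKT1S1, VRK3 and EMC10 among the others. Location and epithelial function cannot be told apart for them. The median of the 4 was -3.33, and -2.83 after the median difference of their chromosome was subtracted.

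Of 7 counted epithelial transcription and splicing factors 6 were at least 2-fold lower. Of the 3 expressed on both arrays 2 were, and the others were counted only through LacZ. Over the 20 measured factors the median was -0.82. ESRP1, a splicing factor that sets epithelial isoforms, read 8.22 and 5.25, and its paralogue ESRP2 6.52 and 4.43. GRHL2, a factor that maintains CDH1 and claudin expression, read 5.14 and 3.36. TFCP2L1, of the same wider family, was among the 15 lowest genes expressed on both arrays, at -2.64, as was SOX9 at -3.04, a factor of mammary progenitors. KLF5 stayed within 2-fold at -0.86. HOXB9 read 5.75 and 2.07, at least 6.73-fold lower.

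Keratins and secreted epithelial proteins were uneven. KRT15 read 7.37 and 4.01, KRT16 8.54 and 7.01, and KRT5, a basal keratin, 7.27 and 7.14. The antiproteases SLPI and PI3 differed by -2.45 and -2.34 and the calcium-binding protein S100A14 by -2.19. SAA1, an acute-phase protein, was higher by 1.61. Only 3 of 31 cornified envelope genes were counted, and all 3 were at least 2-fold lower. As a check of the cell type, 8 of 13 basal mammary markers measured were expressed on LacZ and 8 on the double array, and of 20 luminal markers 4 and 3.

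The promoter of KLK6 is shown as the epithelial promoter with a match to the E-box CAGGTG, the letters bound by factors such as SNAI2 and ZEB1. The choice was made after CDH1 was found to have no entry: KLK6 had the lowest difference among epithelial genes whose entry holds the motif. It lies at chr19:50969542-50969841, minus strand (GRCh38.p14, RefSeq), and capitals mark the E-box.
KLK6: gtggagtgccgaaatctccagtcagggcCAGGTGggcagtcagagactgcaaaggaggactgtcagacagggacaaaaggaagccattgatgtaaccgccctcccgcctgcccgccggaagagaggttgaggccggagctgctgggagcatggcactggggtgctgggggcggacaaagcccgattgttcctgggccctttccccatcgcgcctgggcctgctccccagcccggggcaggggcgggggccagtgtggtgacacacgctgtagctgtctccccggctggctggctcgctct
The match spans -222 to -217 from the gene start. These letters stand, on either strand, in 20.6% of all promoters of the table. Only 25 of the 51 lower epithelial genes had an entry, and 11 of these 25 (44.0%) held the letters. Among the 3410 counted genes with an entry the share was 15.6%. The share over all 51 is not known, and a match of letters shows no binding. No motif of the division genes was found in this window.

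**Figure D2:**
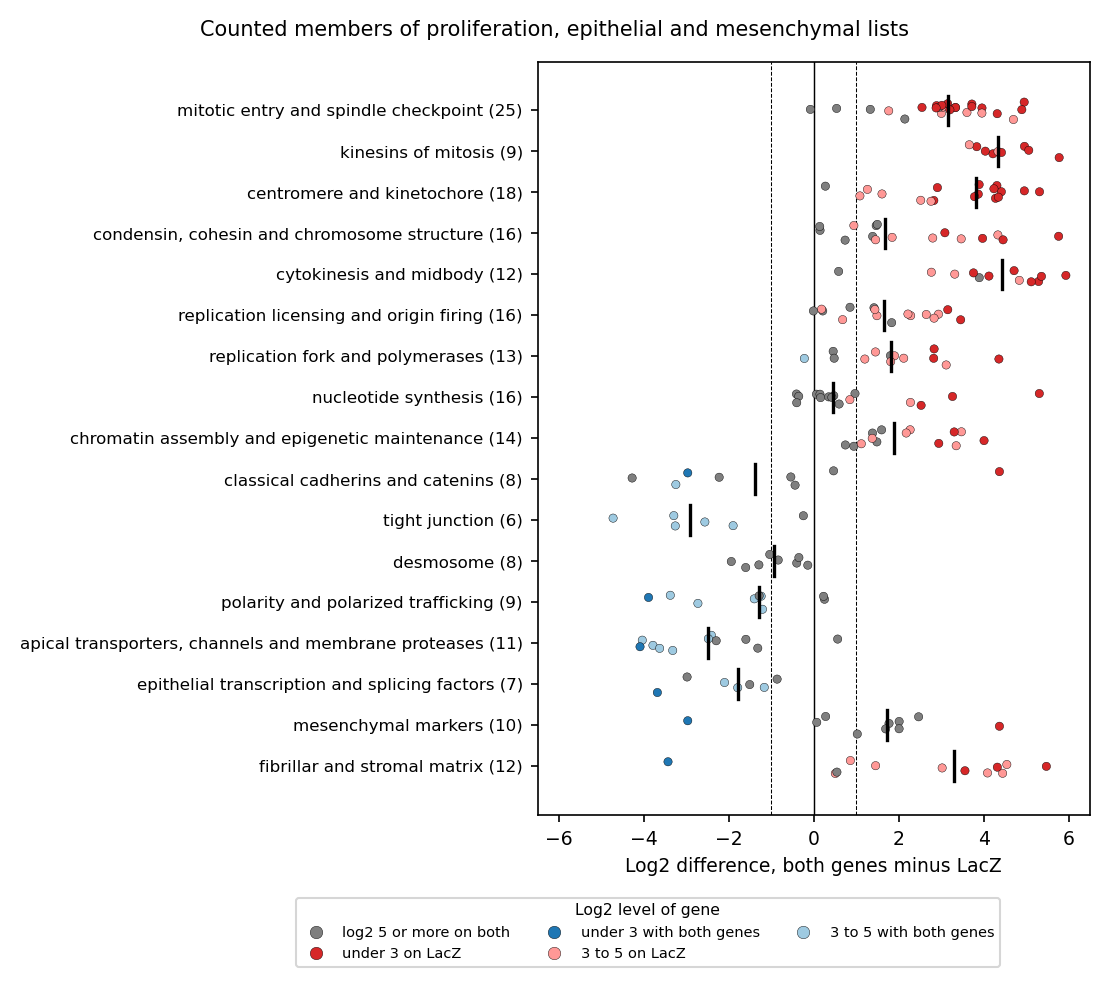
Log2 difference (double array minus LacZ array, 1 array each) of every counted member of 17 gene lists. Each point is a gene, coloured by its level on both arrays, bars are list medians of measured differences, genes at background included, dashed lines mark 2-fold and the number of counted genes follows each name. Division lists lie to the right with medians up to 4.42 and junction and apical lists to the left with medians down to -2.91.

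Mesenchymal genes were higher in part. Of 10 counted mesenchymal markers 7 were at least 2-fold higher and 1, CDH11, was lower, with a median of 1.74. Of the 8 expressed on both arrays, 6 were at least 2-fold higher. Another 19 measured markers stayed under the expression threshold on both arrays and were not counted. Of these, 8 were at background on both, among them VIM, the vimentin gene, at 1.34 on LacZ and 1.59 on the double array. Also among those not counted, ACTA2 differed by -0.92, while MYL9 and LOXL2 differed by 2.04 and 2.09. Over the 29 measured markers the median was 0.83. FN1, the fibronectin gene, read 8.54 and 10.32, AXL, a receptor tyrosine kinase of mesenchymal cells, 5.72 and 7.73, and NT5E, the surface enzyme CD73, 7.92 and 9.62. FN1 was higher still on the Her2-labelled array, at 10.91, while AXL and NT5E were highest on the double array. MME, the surface peptidase CD10 of myoepithelial cells, read 6.06 and 8.53 but was nearly as high on the Her2-labelled array, at 8.10. Among the transcription factors of this state, SNAI2 was high on all 4 arrays, at 9.32 on LacZ and 9.81 on the double array. TWIST1 differed by 1.21 and was highest on the Her2-labelled array, at 5.84. ZEB1 was not counted: it was at background on LacZ and both single-gene arrays and low, at 3.36, on the double array. Of 23 measured factors only 4 were counted, and 14 were at background on both arrays.

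Matrix genes showed 3 patterns across the 4 arrays. LUM and DCN, genes of the collagen-binding proteoglycans lumican and decorin, were at background on the other three arrays (at most 0.78 and 1.15) and read 6.26 and 5.06 on the double array. POSTN, the gene of periostin, read 4.07 on LacZ, 9.19 on the Her2-labelled array, 7.90 on the PIK3CA-labelled array and 8.62 on the double array. DPT, the gene of dermatopontin, read 3.41, 8.38, 3.69 and 7.86 in the same order, so it was high on the Her2-labelled array and the double array. FBN1, the gene of fibrillin-1, ran alike at 2.09, 4.64, 2.12 and 5.65. EFEMP1, a fibulin, was the third highest gene expressed on both arrays, from 5.23 to 8.06. SMOC1, a basement membrane glycoprotein, was at background on the double array, from 6.08 to 2.66. In all 8 of 12 counted stromal matrix genes were at least 2-fold higher, and 24 of 43 measured ones were at background on both arrays. These 8 were low or at background on LacZ and counted through the double array, so their direction follows from the filter. The 1 member expressed on both arrays, THBS1, differed by 0.55, and over the 43 measured the median was 0.088.

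Markers of other cell types were read beside these genes. Of 12 measured fibroblast markers 0 were expressed on LacZ and 4 on the double array (LUM, DPT, DCN and FBLN1), and 7 were still at background there. The sum of their levels on the linear scale was 78.4 on LacZ, 435 on the Her2-labelled array, 75.9 on the PIK3CA-labelled array and 436 on the double array. Endothelial markers gave 0 expressed of 9 on every array. Of 11 leukocyte markers 2 were expressed on the double array, CD68 (4.68 and 6.78) and LAPTM5 (2.86 and 5.94), both lysosomal membrane proteins, and 9 were at background. The part of other cells in the matrix genes was not tested.

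**Figure D3:**
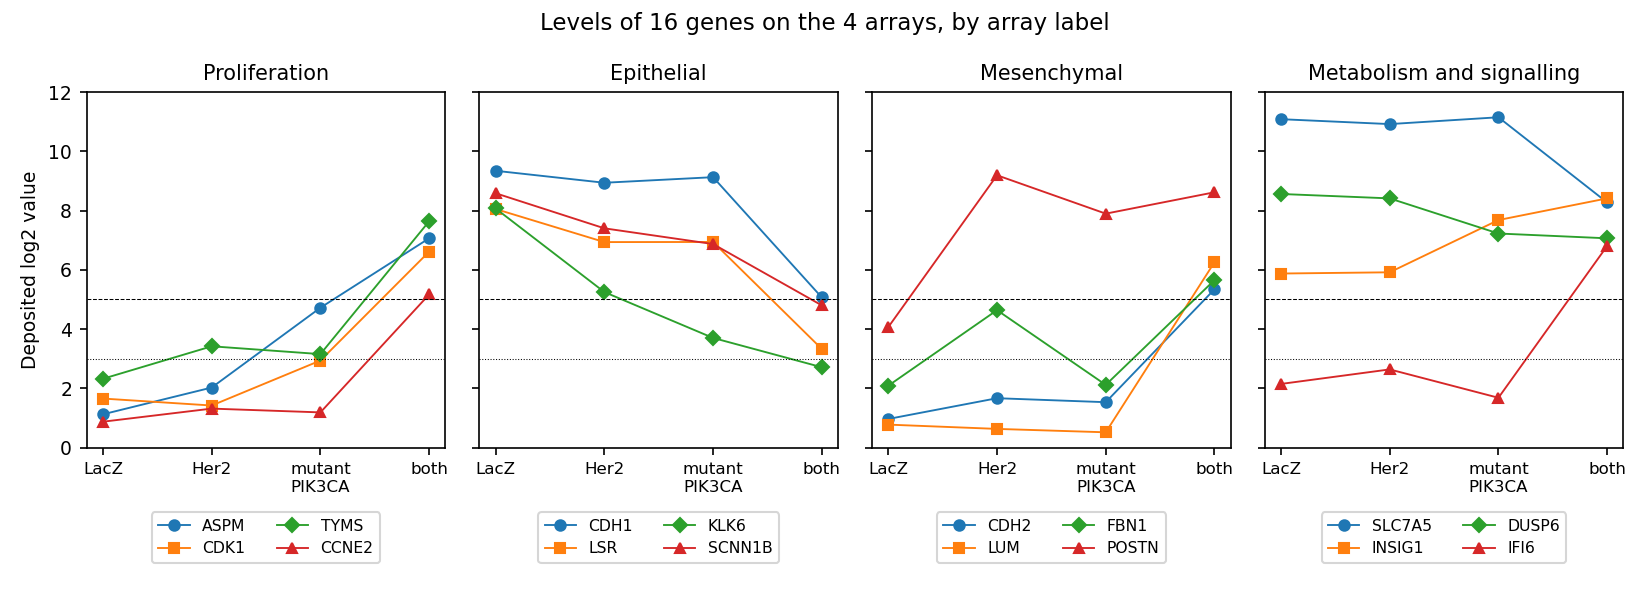
Deposited log2 value of 16 genes on each of the 4 arrays, named by their labels, 1 array each. Lines only join the values of 1 gene, the dotted line marks the background limit of 3 and the dashed line the expression threshold of 5. CDH1, CDH2, LUM, CCNE2, IFI6 and SLC7A5 stand apart on the double array, while POSTN and INSIG1 are also high on a single-gene array.

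The single-gene arrays were read for the genes at background on LacZ and expressed on the double array. Of the 103 genes, 85 were at background on the Her2-labelled array and 46 on the PIK3CA-labelled array, and 40 were at background on both. On these arrays 2 and 4 of them were expressed. The double array was the highest of the 4 for 100 of the 103. For the counted mitosis genes the median level was 2.70 on LacZ, 2.65 on the Her2-labelled array, 4.22 on the PIK3CA-labelled array and 6.27 on the double array. Replication genes had medians of 4.31, 4.29, 4.52 and 5.85 in the same order. FAM111B and IFI6, the latter an interferon-induced gene, were at background on all but the double array, at 6.40 and 6.81. The epithelial genes at least 2-fold lower had medians of 7.38, 6.55, 6.87 and 4.82, with the double array lowest for 47 of 51. Since the members were chosen on the double and the LacZ array, these orders are descriptions.

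Pathway output gave smaller differences. Of 17 counted MAPK output and feedback genes 0 were at least 2-fold higher and 4 were lower, with a median of -0.61. DUSP6, a phosphatase induced by ERK that turns it off, read 8.56 on LacZ, 8.41 on the Her2-labelled array, 7.23 on the PIK3CA-labelled array and 7.06 on the double array. MYC, JUNB and DUSP7 differed by -1.30, -1.35 and -1.39. EGR1, SPRY2 and FOSL1, other genes induced by this cascade, were within 2-fold at -0.76, -0.94 and -0.33.

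Apart from the ERBB2 probe set, which was left out of the list, 0 of 5 counted ERBB receptor, ligand and regulator genes were at least 2-fold higher. EGFR read 8.11 and 7.16, a difference of -0.94, and its feedback inhibitor ERRFI1 8.81 and 8.01. HBEGF, a ligand of EGFR, was the 1 gene of these that was at least 2-fold lower, from 5.68 to 3.25. Of 9 counted PI3K pathway components 1 was at least 2-fold lower, TSC2 (-1.21), which restrains mTORC1, and 0 were higher. FOXO targets, which AKT signalling would keep low, had 1 of 9 counted genes higher, GADD45A, and 0 lower, with a median of -0.15. IRS2 and TXNIP, members of that list, differed by -0.88 and -0.57.

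YAP and TEAD targets were higher in part. Of 14 counted 9 were higher by 2-fold or more and 0 lower, and the median was 1.38. Of the 9 expressed on both arrays 4 were at least 2-fold higher (median 0.88), and over the 26 measured the median was 0.74. CCN1 read 3.26 and 6.29 and CCN2 3.60 and 5.06, both matricellular proteins and standard readouts of YAP. On the PIK3CA-labelled array CCN1 read 6.55. ASAP1, F3 and CRIM1 differed by 1.76, 1.28 and 1.53. TGF-beta and BMP genes went both ways, with 3 of 10 at least 2-fold higher and 4 lower. LTBP1, which holds latent TGF-beta in the matrix, read 3.04 and 7.14, and TGFB2 4.90 and 6.21. ID1, a target of BMP signalling, and BAMBI, a decoy receptor, differed by -1.74 and -1.88. SFRP1, a secreted Wnt antagonist, differed by -2.24 and DKK1, another, by 1.80.

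Sterol synthesis genes were higher. Of 16 counted 10 were higher by 2-fold or more and 0 lower, and the median was 1.20. Of the 7 expressed on both arrays, 3 were at least 2-fold higher. HMGCS1, the first step after acetoacetyl-CoA, read 3.85 on LacZ, 3.97 on the Her2-labelled array, 4.76 on the PIK3CA-labelled array and 7.21 on the double array. INSIG1, which retains the sterol sensor SCAP in the endoplasmic reticulum and is itself a target of SREBP factors, read 5.88, 5.92, 7.68 and 8.41. Both HMGCS1 and INSIG1 were highest on the double array and INSIG1 was also high on the PIK3CA-labelled array. DHCR7 and SREBF2 were within 2-fold at 0.15 and 0.28. Fatty acid synthesis did not follow as a whole: 4 of 14 counted genes were at least 2-fold higher and 1 lower, with FASN, the fatty acid synthase gene, at -0.58 and ACACA at -0.35.

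Amino acid transport and stress response genes were lower. Of 29 counted genes 9 were at least 2-fold lower and 0 higher, with a median of -0.63. SLC7A5, the large neutral amino acid transporter LAT1, read 11.08 on LacZ, 10.92 on the Her2-labelled array, 11.15 on the PIK3CA-labelled array and 8.27 on the double array, which alone was low. Its partner chain SLC3A2 ran alike, from 8.56 to 6.54. SLC1A5, a glutamine transporter, PHGDH, the first enzyme of serine synthesis, and the ATF4 targets TRIB3 and CHAC1 differed by -1.52, -1.29, -1.71 and -1.59. ATF4 itself differed by -0.10 and ASNS, the asparagine synthetase gene, by -0.55. The 10 counted tRNA synthetase genes were within 2-fold, from -0.81 for SARS1 to 0.76 for EPRS1.

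Other metabolic lists held few differences of that size. Of 8 counted glycolysis and hypoxia genes 1 was at least 2-fold lower, VEGFA (-1.05), and of 15 oxidative phosphorylation genes 1 was higher, NDUFB6 (1.51). Among NRF2 targets NQO1, a quinone reductase, read 5.68 and 8.05, while TXNRD1 and SLC7A11 differed by 0.28 and -0.56. Of 6 counted class I antigen presentation genes B2M, the invariant light chain, read 5.73 and 8.04, and the heavy chain genes HLA-C and HLA-E differed by -0.27 and -0.05. Of 34 interferon-stimulated genes measured only 2 were counted. Of the reference lists, ribosomal proteins had a median of -0.28 over 20 counted genes with 2 at least 2-fold lower. Proteasome genes had 0.34 over 21 with 1 higher, and housekeeping genes 0.15 over 19 with 3 higher. Over all measured members the 3 medians were -0.21, 0.60 and 0.11.

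**Figure D4:**
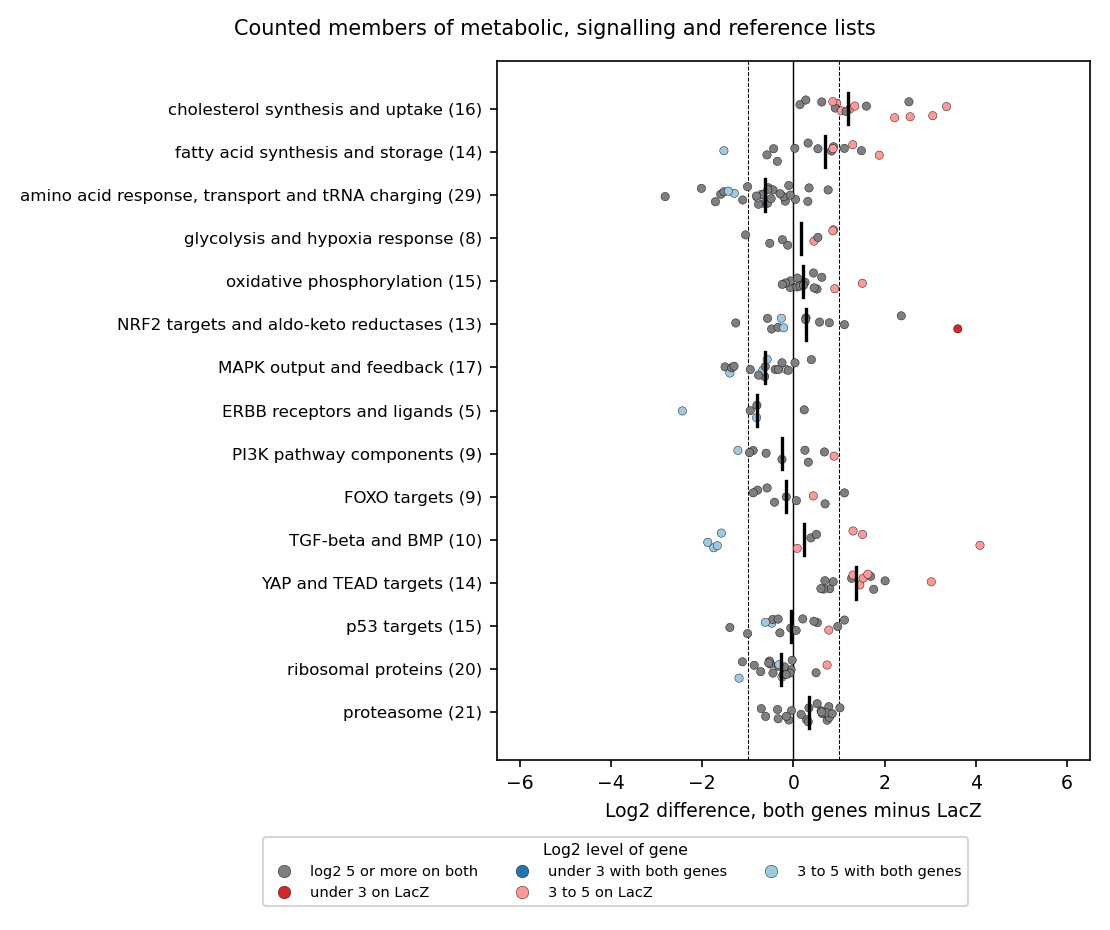
Log2 difference (double array minus LacZ array, 1 array each) of every counted member of 15 metabolic, signalling and reference lists, drawn as in the plot of identity lists. Cholesterol synthesis (median 1.20) and YAP and TEAD targets (1.38) lie to the right, amino acid genes (-0.63) and MAPK output (-0.61) to the left. Ribosomal (-0.28) and proteasome genes (0.34) lie between them.

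The differences also followed the chromosomes. Chromosome membership came from the RefSeq promoter table, which held 2357 of the 2811 genes expressed on both arrays. The median difference was 0.35 on chromosome 1, -0.49 on chromosome 17, -0.50 on chromosome 19 and -0.25 on chromosome 16, and between -0.18 and 0.22 on the other chromosomes shown. Chromosome 8 is missing, since none of these genes had a promoter entry there. On chromosome 1, 46 of 263 genes were at least 2-fold higher (17.5%, against 6.65% overall). On chromosomes 17 and 19, 27 of 175 (15.4%) and 28 of 162 (17.3%) were at least 2-fold lower, against 6.26%. Against the same LacZ array, which these comparisons share, the PIK3CA-labelled array had medians of 0.35, -0.49 and -0.23 on chromosomes 1, 17 and 19. The Her2-labelled array had medians of 0.04, -0.27 and -0.34.

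Neighbouring genes formed runs. The longest run of adjacent counted genes at least 2-fold higher held 10 genes of chromosome 1, from LAMC1, a laminin chain, through ARPC5, EDEM3 and TPR to RO60. The longest lower run was that of AKT1S1 to KLK10, and SOX9 began one of 6 genes. CDH1, CDH3 and ESRP2 formed a run of 3. Subtracting the median of its chromosome from each gene with a promoter entry left the mitotic entry list at 3.37, from 3.34 for the same 17 of 25 genes. Copy number was not measured here, and its part in the result was not tested.

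**Figure D5:**
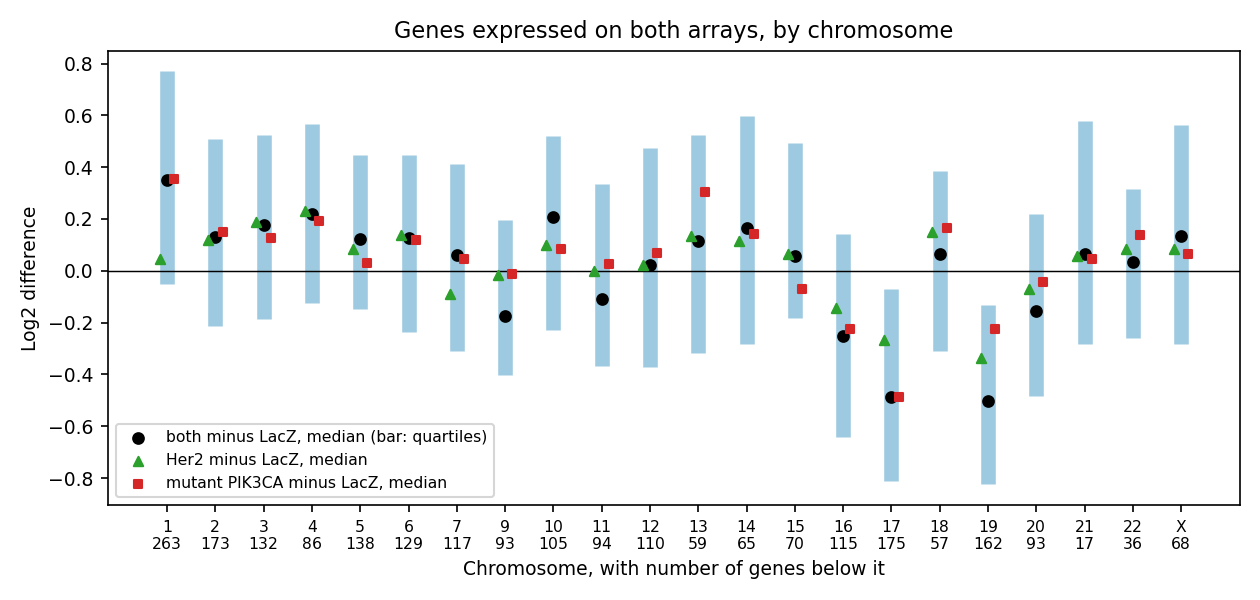
Median log2 difference of genes expressed on both arrays, by chromosome, for the double array minus LacZ (black points, bars from lower to upper quartile) and for each single-gene array minus the same LacZ array (triangles and squares). The number of genes stands under each chromosome, and chromosome 8, where no such gene had a promoter entry, is missing. Chromosome 1 lies highest at 0.35 and chromosomes 17 and 19 lowest at -0.49 and -0.50.

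The rest of the named genes spanned several functions. Higher on the double array and expressed on both were CA8, a carbonic anhydrase relative without enzyme activity, by 2.61, ZBED6, a transcriptional repressor, by 2.61, and the histone gene H2AC21 by 2.70. SGCB (a sarcoglycan), PON2 (a paraoxonase), CKS2 (a CDK-binding subunit), PRPS2 (a phosphoribosyl pyrophosphate synthetase) and LAMB1 (a laminin chain) were higher by 2.32, 2.17, 2.15, 2.07 and 2.05. Lower and expressed on both were AVPI1 (-2.30), CLSTN1, the gene of calsyntenin (-2.28), and GRN, the gene of progranulin (-2.19). At background on LacZ and expressed on the double array were also STIL, a centriole duplication factor, and MELK, a mitotic kinase, at least 12.2-fold and 10.6-fold higher. Expressed on LacZ and at background on the double array were the adhesion receptors ADGRG1 and ADGRF1, at least 21.5-fold and 7.11-fold lower, and B3GNT3, a glycosyltransferase, at least 8.14-fold. CALB2, the gene of calretinin, and CXCL16, a chemokine, were at least 4.64-fold and 4.12-fold lower. ADGRF1 and CDH11 were also expressed on the Her2-labelled array, at 5.95 and 6.63.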

How the data were processed

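Total RNA of 4 MCF10A lines was labelled with biotin and hybridised to Affymetrix whole-transcript arrays, 1 array a line, per the labels' protocols. Per the submitters' processing notes, the authors made the deposited log2 values with oligo and RMA. The log base was taken from the range of the values. The sources used here give no software version, build or probe set definition. RMA includes quantile normalization, which makes the 4 distributions alike and can hide a shift shared by all genes.

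Of 53617 probe sets 23871 had 1 gene symbol in the platform annotation, 1842 had several and 27904 had none. The last kinds were not named, except the probe set of ERBB2. 90 symbols were updated through the RefSeq table (GRCh38.p14). A gene was represented by its probe set with the highest mean of both arrays. No count includes small RNAs, ERBB2 or PIK3CA. The same level thresholds were applied to the probe sets of all genes. Levels summed or given as medians over several genes were compared between arrays only. Differences of the deposited log2 values were computed in Python 3.11.15 with pandas 2.3.3, and alternatives with limma 3.58.1 in R 4.3.3 (quantile, cyclic loess with 3 iterations). Thresholds were 3 for background, 5 for expression and 1 for a 2-fold difference. Counting was tested on simulated data. No test, SD or interval was possible with 1 array a group.

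Named genes were the 15 highest and 15 lowest differences among genes expressed on both arrays, the 15 largest bounds of genes at background on LacZ, all 12 genes at background on the double array, and list members as examples. The comparison, the members and the gene lists were chosen with earlier results of these data known, so counts of lists describe and do not test.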

Additional observations from a re-analysis of the deposited data

How the results depend on the processing

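No paired analysis was possible because each group was measured on 1 array, and no array could be left out. Thresholds set the counts. With expression at log2 4 or 6 in place of 5, the genes expressed on both arrays and at least 2-fold higher numbered 377 or 75 and the lower ones 362 or 85. The genes at background on LacZ and expressed on the double array numbered 281 or 34, the reverse class 99 or 5, and all counted genes that were higher 891 or 332. The lower counted genes numbered 265 at log2 6. At 1.5-fold or 4-fold, 517 or 17 genes expressed on both arrays were higher and 476 or 17 lower, and of all counted genes 1084 or 203 were higher and 902 or 80 lower. With the background limit at 2 or 4, these classes numbered 53 or 207 and 3 or 90. Quantile normalization, cyclic loess, the mean of probe sets and keeping small RNAs left all 6 counts within 1.5 times. The share of higher among all 2-fold calls was 56.4%, 52.1% after quantile normalization and 71.7% at 4-fold. Of 289 single-gene differences of at least 2-fold, 0 turned direction under quantile normalization, loess or the mean of probe sets. Without the filter on low values, 9 of 59 list medians turned sign, 2 of them among the 29 of at least 2-fold: cornified envelope genes to 0.084 (from -1.78) and leukocyte markers to -0.15 (from 2.59). Most members of both lists were at background on both arrays. Another 27 medians moved by more than 0.44, the 90th percentile of the gaps between probe sets of a gene, among them stromal matrix (3.29 to 0.088), hyaluronan (3.02 to 0.13), fibroblast marker (4.39 to 0.22), tight junction (-2.91 to -0.64) and kallikrein genes (-3.33 to -1.38). Subtracting the chromosome median, an alternative chosen after seeing the data, moved 1 of 56 list medians, the kallikreins, by more than 0.44. Only members with a promoter entry were compared, before and after. These were all 6 tight junction genes, but 1 of 5 keratins, 2 of 7 epithelial factors, 5 of 11 apical genes and 4 of 8 cadherin and catenin genes. The last 4, without CDH1, had a median of 0.02 before subtraction, against -1.38 for all 8, so several epithelial lists were checked only in part. Single arrays, unknown clonality and the Her2-labelled array, whose ERBB2 value goes against its label, limit every result.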

Other observations

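Adhesion to the matrix showed members in both directions. Of 10 counted integrin genes 1 was at least 2-fold higher, ITGAV (1.20), and 2 were lower, ITGB6 (6.52 on LacZ and 3.63 on the double array) and ITGB4 (-1.30), the partner of ITGA6 in hemidesmosomes. Of 7 laminin and basement membrane genes LAMB1, LAMC1 and DST were higher, by 2.05, 1.09 and 2.05, and LAMB3, a chain of an epithelial laminin, was lower, at -1.67. Hyaluronan genes included HAS2, the main hyaluronan synthase, which read 0.98 on LacZ, 4.01 on the Her2-labelled array, 1.35 on the PIK3CA-labelled array and 5.86 on the double array. PTX3, a pentraxin of the hyaluronan matrix, read 2.15, 6.07, 2.59 and 5.28 in the same order. CD44, the receptor, differed by -0.20. SERPINB7, a clade B serpin, was at background on LacZ at 2.23 and read 6.52 on the PIK3CA-labelled array and 5.60 on the double array.

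Probe sets outside the comparison were counted too. Among 27904 without a gene symbol, 27 were at background on LacZ and expressed on the double array and 13 the reverse, and among 1842 with several symbols 4 and 0. Of 17 counted H/ACA small nucleolar RNAs 4 were at least 2-fold higher and 2 lower, and of 17 counted C/D box RNAs 3 and 1.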
